A study of Mus musculus with 18 samples.

Results

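Livers taken 24 h after an injection of D-galactosamine (GalN) were compared with livers of sham mice, over every gene that the array names by itself. GalN is an amino sugar that is toxic to the liver. The comparison uses 6 of the 18 arrays of the study, 3 from 24 h livers and 3 from sham livers, which measured total RNA on Affymetrix mouse genome arrays. Male C57BL6 mice of 20 g received 4.5 g/kg GalN i.p. and were necropsied at 24 h, and sham mice received a saline injection and were also necropsied at 24 h. The age of the animals is not given in the sources used here. The organs were flushed in place before RNA was taken from a piece of whole liver, so each array is a mixture of cell types, and a lower value of a cell type's genes can mean fewer of those cells or less RNA per cell, which cannot be told apart here. The methods speak of equal amounts of RNA from the mice of a condition, which may mean a pool, but each group has 3 arrays with letters A, B and C. Each array was treated as 1 animal. The p-values measure only the spread between arrays, and the fit takes that spread from all 9 liver arrays, the 48 h livers included. The genes were chosen by their annotation alone. Of 45101 probe sets, 34945 were named for a single gene, and each of 18193 genes was read from its set of highest mean value (all 18 arrays counted), of which 12071 passed the filter on low values in liver and were tested.

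In hepatocytes the enzymes of galactose metabolism act on galactosamine and turn it into UDP-linked amino sugars. This traps uridine phosphates, so that uridine nucleotides run short in the hepatocyte and the making of RNA and protein falls. The liver makes most plasma proteins, bile acids, cholesterol, glucose and urea of the body, and the genes for these tasks stand among its most abundant transcripts.

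The 6 arrays had like medians, but the upper quartile of an array was 6.74 to 6.77 in 24 h livers and 6.51 to 6.65 in sham livers. Counts after quantile normalisation, which makes the distributions of the arrays alike, are given with the processing alternatives below. The part of this gap in the results was not tested further. Values are the authors' log2 gcRMA values (a background-corrected, normalised log2 intensity), whose lowest value in the table is 2.21. The array medians, which lie near that lowest value, were 2.40 to 2.41 in 24 h livers and 2.38 to 2.42 in sham livers. Each array correlated with the others of its group at 0.9912 or more at 24 h and 0.9895 or more in sham. For Actb, the 3' control set exceeded that at the 5' end, a measure of RNA quality, by 1.765 to 1.953 log2 units in 24 h livers and 1.482 to 1.86 in sham livers, and its part in the results was not tested. The control set of Gapdh at the 3' end read 14.89 to 15.17 at 24 h and 14.84 to 15.01 in sham. Of 7 hepatocyte markers on the array, 5 were not called and Asgr1 and Cps1 were lower at 24 h; their summed level, on the log2 scale, was 18.13 to 18.21 in 24 h livers and 18.26 to 18.32 in sham livers. Albumin (Alb) read 16.56, 16.35 and 16.47 in 24 h livers, against 16.504, 16.22 and 16.28 in sham livers.

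Of the 12071 genes tested, 3966 (32.9%) differed at a limma adjusted p under 0.05. At 24 h 2161 genes (17.9%) were higher and 1805 genes (15%) were lower. At least 2-fold differences were found for 1489 higher and 1229 lower genes. Among called genes the median log2 difference was 1.28 for those higher and -1.26 for those lower, and the median over all tested genes was 0.0048. The groups did not overlap for 3958 of the called genes, against 6017 of all genes tested. Only through the 24 h livers had 29 genes passed the filter, of which 24 were called higher, and only through the sham livers 9, of which 8 were called lower. Throughout, a difference is the 24 h mean minus the sham mean on the log2 scale, with 3 arrays in each group. It is given ± its standard error in the fit, which also takes in the spread of the 48 h livers. A fold is written as "at least" where the dimmer group has a reading within 1 log2 unit of the lowest value of the table or one that recurs to the last digit in another array. Such readings were taken to carry no signal of their own, which was not tested for recurring readings above that limit. For the latter the fold printed is the plain one.

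The 12 largest rises were of genes of several kinds. Cbr3, a carbonyl reductase, read 10.16, 10.71 and 10.72 in 24 h livers, against 4.06, 3.37 and 2.65 in sham livers. It rose at least 126-fold (log2 difference 7.17 ± 0.67, adjusted p = 0.000473). Cdkn1a, which encodes the cell cycle inhibitor p21, read 13.40, 13.37 and 13.44 in 24 h livers, against 6.12, 6.36 and 6.25 in sham livers. The livers at 24 h lay close together for this gene, and the rise was at least 143-fold (7.16 ± 0.77, adjusted p = 0.000774). That standard error also holds the spread of the 48 h livers, whose standard deviation was 1.77 for Cdkn1a. Tnfrsf12a, through which the cytokine TWEAK signals, read 10.27, 10.31 and 11.39 in 24 h livers, against 4.90, 5.25 and 5.30 in sham livers. Cidec, a lipid droplet protein, read 9.07, 9.74 and 10.28 in 24 h livers, against 4.13, 4.15 and 4.39 in sham livers, so the groups lay far apart. Chka, the choline kinase of phosphatidylcholine synthesis, read 10.34, 8.74 and 10.51 in 24 h livers, against 4.28, 4.51 and 4.46 in sham livers, with liver B the lowest at 24 h. Ddias and the TNF family receptor Eda2r lay at the lowest value of the table in all 3 sham arrays (2.21) and at 9.02, 8.32 and 7.43 and 8.03, 6.39 and 7.05 at 24 h. Ddias passed the filter only through the 24 h livers, so that it had to differ to be tested, and the sizes of both differences rest on sham readings without signal. Epm2aip1 (6.09 ± 0.67), Tubb6 (5.74 ± 0.78), a tubulin, Phlda3 (5.30 ± 0.23), an inhibitor of AKT signalling, Slc39a6 (4.97 ± 0.60), a zinc importer, and Srxn1 (4.86 ± 0.51), which repairs oxidised peroxiredoxins, complete this group.

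The 12 largest falls included 6 enzymes of steroid, glucose, uridine and fatty acid metabolism. Cyp8b1, the sterol 12-alpha-hydroxylase that sets the share of cholic acid in bile, read 5.11, 4.52 and 3.08 in 24 h livers, against 13.23, 13.24 and 12.94 in sham livers. It fell at least 465-fold (-8.90 ± 0.60, adjusted p = 0.000144). Hsd3b5, a steroid dehydrogenase of male mouse liver, read 4.93, 7.51 and 6.49 in 24 h livers, against 13.11, 12.94 and 13.47 in sham livers. G6pc, the glucose-6-phosphatase that releases glucose from the liver, read 3.99, 7.91 and 2.92 in 24 h livers, against 12.18, 11.14 and 11.999 in sham livers, and liver B stood well above the other two at 24 h. Cyp17a1, a steroid hydroxylase and lyase, read 3.16, 3.29 and 3.31 in 24 h livers, against 10.49, 9.92 and 9.31 in sham livers. Upp2, a uridine phosphorylase that breaks down uridine in liver, read 7.10, 9.65 and 7.58 in 24 h livers, against 14.43, 14.39 and 14.57 in sham livers, again with liver B the highest at 24 h and all 3 far below sham. Elovl3, a fatty acid elongase, read 4.10, 8.69 and 8.41 in 24 h livers, against 12.58, 12.505 and 12.07 in sham livers, and here liver A was the lowest. Hectd2os (-7.84 ± 1.24), Fam47e (-6.32 ± 0.45), Clec2h (-6.28 ± 1.20), Nrep (-5.59 ± 0.40), Pgap1 (-5.55 ± 0.34) and Nxpe2 (-5.47 ± 0.41) were the others. All 3 readings of Nxpe2 at 24 h were at the lowest value of the table.

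**Figure D1:**
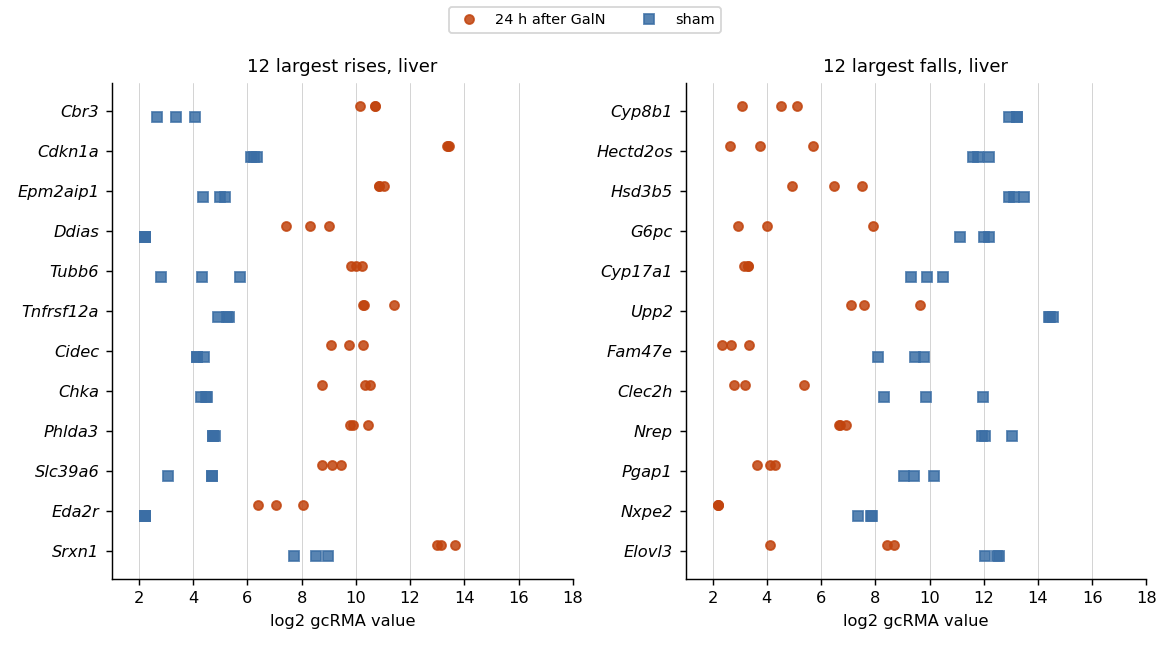
Log2 gcRMA value of each array for the 12 genes with the largest called rises (left) and the 12 with the largest called falls (right), with 24 h livers as circles and sham livers as squares. The genes were chosen to have groups that do not overlap. The 24 h circles of Cdkn1a (13.37 to 13.44) nearly coincide, while those of G6pc spread over 2.92 to 7.91.

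The genes were also read by function, in 53 lists whose 2073 entries include 1764 different genes on the array, 1609 of them tested. The shares are read against 17.9% higher and 15% lower among all genes tested. Ribosome biogenesis factors had the largest share of higher members (79.6%), followed by p53 targets (57.5%) and cytosolic chaperonins and co-chaperones (53.8%). Sterol synthesis genes had the largest share of lower members (77.3%), followed by fatty acid and triglyceride synthesis (65.5%), amino acid breakdown (63.9%) and the urea cycle with ammonia handling (61.9%).

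**Figure D2:**
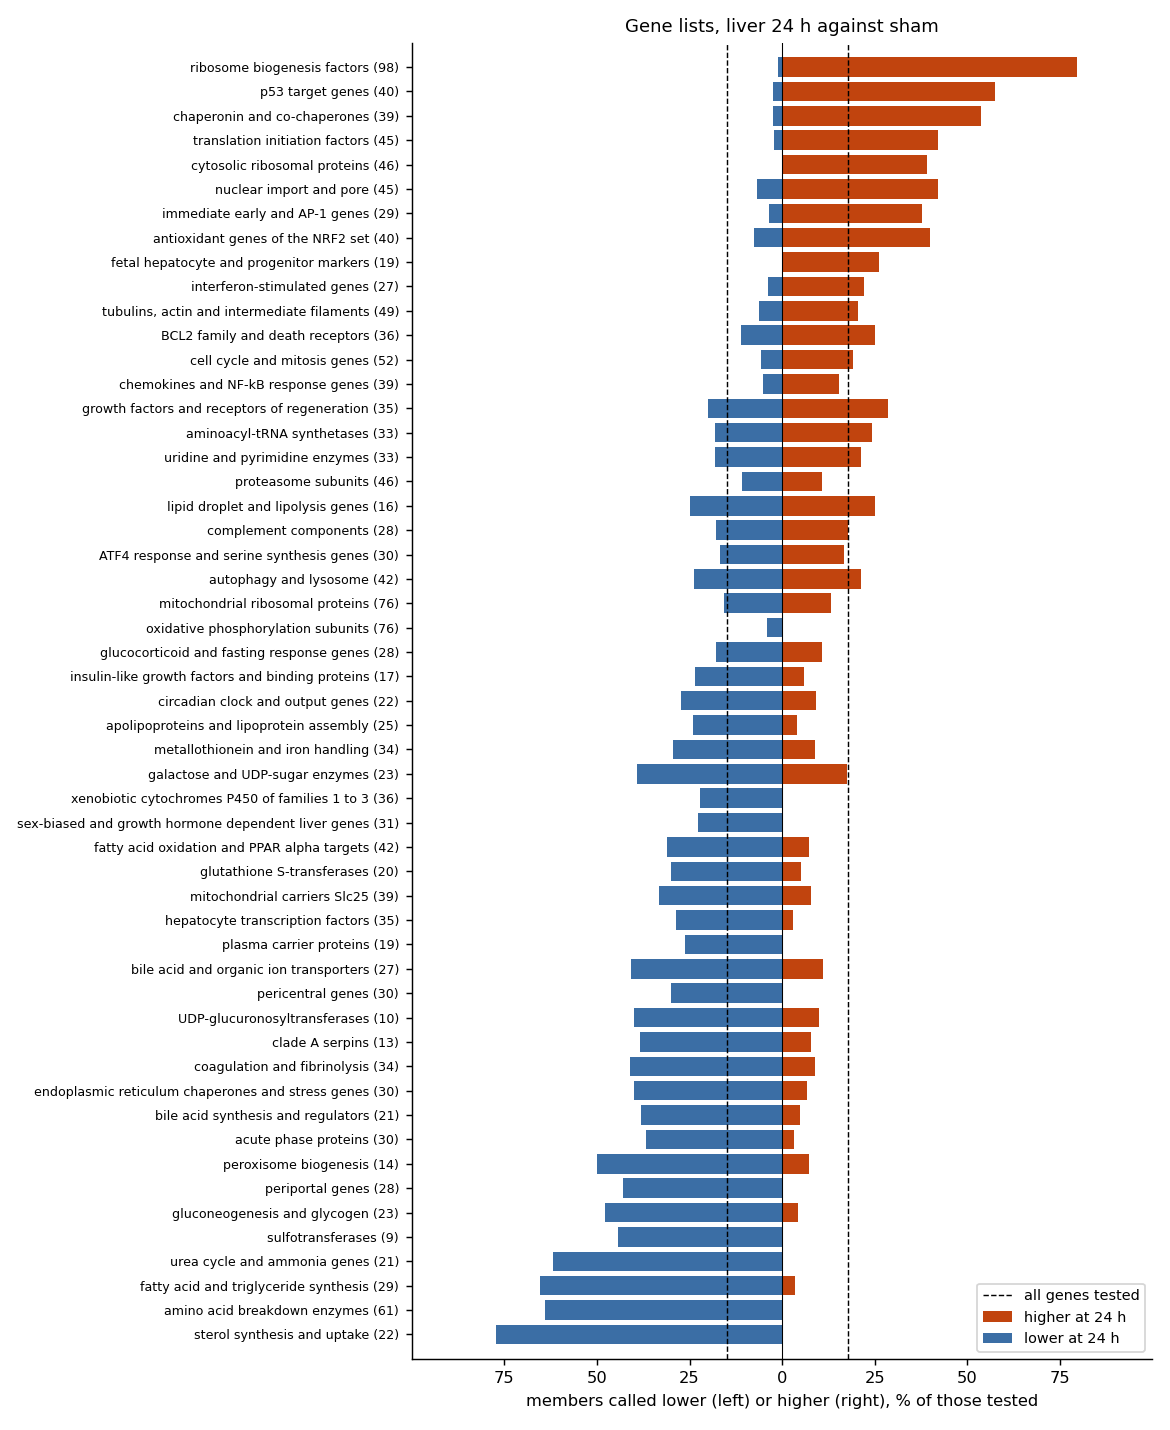
Share of the tested members of each of the 53 lists that were called higher (right) or lower (left) at 24 h against sham, in percent, with the number tested in brackets and the shares among all genes tested as dashed lines (17.9% and 15%). Ribosome biogenesis stands at the top and sterol synthesis at the bottom, while oxidative phosphorylation (76 tested) lies below both lines.

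Ribosome biogenesis factors assemble ribosomal RNA and protein in the nucleolus. Of 98 tested, 78 rose, 1 fell (Utp6, -1.07 ± 0.18) and 19 were not called, and the list's median difference was 1.67 against 0.0048 over all genes. The count of higher members was 74 to 81 when any 1 of the 9 liver arrays was left out. Nop58, a core protein of the box C/D particles that guide methylation of ribosomal RNA, read 7.78, 6.40 and 7.10 in 24 h livers, against 3.00, 3.10 and 3.00 in sham livers (4.06 ± 0.52). Brix1, a factor of the large subunit, read 12.11, 11.89 and 11.90 in 24 h livers, against 9.63, 9.51 and 9.43 in sham livers, a 5.43-fold rise (adjusted p = 3.37e-05). Krr1, of the small-subunit processome, read 12.05, 12.01 and 12.26 in 24 h livers, against 9.94, 9.83 and 9.91 in sham livers. Members that act at the start of the pathway also rose: Rrn3, the initiation factor of RNA polymerase I, by 1.55 ± 0.17, and the polymerase subunits Polr1b and Polr1e by 2.05 ± 0.24 and 2.03 ± 0.39. The rDNA transcription factor Ubtf was not called (0.18 ± 0.16, adjusted p = 0.453), nor were Ncl, or nucleolin (0.69 ± 0.49), and the SL1 subunits Taf1a, Taf1b and Taf1c (0.79, 0.31 and 0.42). The lowest fitted difference of the list was that of Utp6, and the highest that of Nop58, whose 3 sham readings lie near the lowest value of the table, so its fold is a bound (at least 14.7-fold).

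The promoters of these genes were searched for the E-box CACGTG, the letters that MYC and related factors bind, in the 250 bases before to 50 bases after each start. It was found for 16 of the 69 higher ribosome biogenesis genes with a promoter in the RefSeq table (23.2%) and 18 of the 84 measured (21.4%), against 11.5% of 9746 tested genes with a promoter and 8.09% of all 27025 genes of the table. The motif reads the same on both strands and holds a CpG. The shares were not matched for CpG, whose observed over expected ratio had a median of 0.815 for all higher genes and 0.737 for all tested genes. The part of MYC in these rises was not tested. Myc itself read 8.21, 8.53 and 8.18 in 24 h livers, against 4.83, 4.96 and 6.64 in sham livers, and sham C was the nearest to the 24 h livers (2.83 ± 0.85, adjusted p = 0.0404); the call was lost in 5 of 9 fits that left out 1 array. The promoters of Nop2, a methyltransferase of ribosomal RNA (log2 difference 2.35 ± 0.15), and of Rrn3 are shown because they hold 1 and 2 such boxes in the bases before the start. They are RefSeq sequences of GRCm38.p6 on the plus strand, with E-boxes in capitals.
Nop2, chr6:125131633-125131882: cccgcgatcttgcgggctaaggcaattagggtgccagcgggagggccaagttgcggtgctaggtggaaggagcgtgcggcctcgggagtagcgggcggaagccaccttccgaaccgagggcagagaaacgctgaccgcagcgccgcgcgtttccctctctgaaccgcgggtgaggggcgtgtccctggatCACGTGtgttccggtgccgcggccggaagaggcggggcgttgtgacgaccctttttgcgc
Rrn3, chr16:13780449-13780698: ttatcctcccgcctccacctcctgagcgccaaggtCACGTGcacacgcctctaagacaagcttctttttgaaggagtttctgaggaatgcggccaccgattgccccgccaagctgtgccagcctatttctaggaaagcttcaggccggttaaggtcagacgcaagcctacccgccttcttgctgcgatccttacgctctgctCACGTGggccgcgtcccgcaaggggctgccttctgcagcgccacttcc

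Other parts of the protein-making machinery had smaller median differences. Of 46 cytosolic ribosomal proteins tested, 18 were higher and 0 lower, by small amounts (median 0.37). Of the 46, 1 passed the filter only through the 24 h livers and had to differ to be tested. Rplp0, a protein of the ribosomal stalk, read 15.21, 15.04 and 15.18 in 24 h livers, against 14.84, 14.72 and 14.70 in sham livers and rose 1.31-fold. Rpl7 rose by 0.37 ± 0.06, and Rps3a1 by 0.60 ± 0.08. Rps25 had the largest difference (4.21 ± 0.61), but its set read only 3.56, 3.56 and 2.97 in sham, far under the other ribosomal proteins. The count of higher members ranged between 9 without 24 h C or without sham C and 30 without 48 h C, and was 5 after median centring, which took the calls of Rplp0 and Rpl7. Of 45 translation initiation factors, 19 rose and 1 fell (Eif2d, -0.66 ± 0.20), with a median of 0.57. Eif1a, which scans for the start codon, read 12.19, 12.15 and 12.21 in 24 h livers, against 10.12, 9.88 and 10.16 in sham livers. All of Eif2b1, Eif2b2, Eif2b3 and Eif2b4, subunits of the exchange factor eIF2B, rose (by 1.81, 1.72, 1.22 and 1.81), whereas Eif2b5 was not called (-0.11 ± 0.16). Nuclear import and pore genes had 19 of 45 higher and 3 lower (median 0.57), among them the exportin Xpo5 (2.61 ± 0.34) and the importin alpha Kpna2 (1.60 ± 0.10).

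Of 33 aminoacyl-tRNA synthetases tested, which charge tRNAs, 8 rose (24.2%, against 17.9% of all genes) and 6 fell (18.2%, against 15%). All 6 that fell are mitochondrial enzymes: Nars2 (-3.28 ± 0.38), Fars2 (-1.82), Lars2 (-1.59 ± 0.13), Cars2 (-1.23), Aars2 (-1.03 ± 0.15) and Iars2 (-0.86). Nars2 read 5.21, 5.38 and 4.91 in 24 h livers, against 8.52, 8.54 and 8.29 in sham livers. Among the 8 that rose, Rars, Farsa, Yars, Hars and Qars are cytosolic and Rars2, Mars2 and Yars2 mitochondrial. Rars2 read 8.27, 8.85 and 8.73 in 24 h livers, against 7.21, 7.18 and 6.91 in sham livers. Mitochondrial ribosomal proteins had 10 of 76 higher (13.2%) and 12 lower (15.8%), shares near those of all genes; Mrpl19 rose by 1.70 ± 0.14 and Mrpl14 fell by 1.66 ± 0.44. The counts of both lists moved by over 1.5 times when arrays were left out: higher synthetases were 4 without 24 h A, 24 h C or sham B, and lower mitochondrial ribosomal proteins were 4 without sham B.

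Chaperones help proteins fold. Of 39 cytosolic and mitochondrial chaperonins, heat shock proteins and co-chaperones, 21 rose and 1 fell (Fkbp4, -1.02 ± 0.23), with a median of 0.88. The small heat shock protein Hspb1 read 9.504, 9.10 and 10.49 in 24 h livers, against 6.53, 6.37 and 6.52 in sham livers, and its partner Bag3 read 9.63, 10.70 and 10.62 in 24 h livers, against 8.09, 8.09 and 7.98 in sham livers. Subunits of the TRiC ring that folds actin and tubulin rose modestly, with Tcp1 at 1.10 and Cct5 at 0.95, and Cct6a (0.59 ± 0.25) and Cct8 (0.63 ± 0.33) were not called. Of 30 endoplasmic reticulum chaperones and stress genes, by contrast, 2 rose (Ddit3 and Dnajb9) and 12 fell, with a median of -0.68; the count of lower members was 6 without sham B. Sdf2l1, a partner of the chaperone BiP, read 5.73, 6.92 and 6.47 in 24 h livers, against 8.53, 8.59 and 8.60 in sham livers. Calr, or calreticulin, fell by 0.91 ± 0.12 and P4hb, a protein disulphide isomerase, by 0.69 ± 0.10. Hspa5, which encodes BiP, was not called (0.61 ± 0.39, adjusted p = 0.284). Ddit3, or CHOP, a transcription factor of the stress response, read 8.98, 7.75 and 8.32 in 24 h livers, against 7.23, 6.88 and 6.995 in sham livers.

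**Figure D3:**
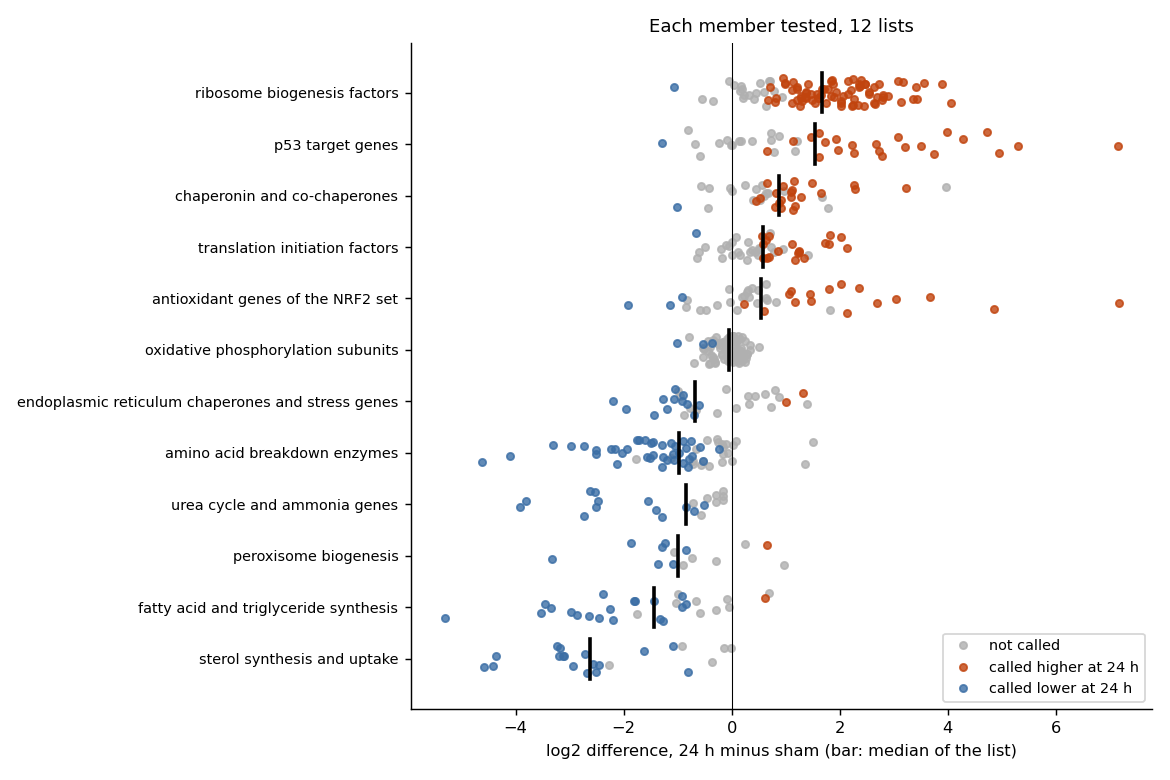
Log2 difference (24 h minus sham) of each tested member of 12 lists, coloured by call, with the median of each list as a black bar. The bars fall between 1.67 for ribosome biogenesis and -2.62 for sterol synthesis, and nearly all members of oxidative phosphorylation lie within 1 of 0.

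Genes known as targets of p53, the DNA damage transcription factor, rose in 23 of 40 cases tested and fell in 1 (Tiam2), with a median of 1.54. The count of higher members was 19 to 25 when any 1 array was left out. Mdm2, the ligase that degrades p53, read 10.72, 10.41 and 10.09 in 24 h livers, against 7.40, 7.29 and 7.30 in sham livers (an 8.45-fold rise, adjusted p = 0.000294). Aen, a nuclease induced in apoptosis, read 9.76, 8.98 and 9.90 in 24 h livers, against 4.93, 4.76 and 4.76 in sham livers. Ccng1, a cyclin, read 12.66, 12.54 and 12.26 in 24 h livers, against 9.82, 9.73 and 9.56 in sham livers, and Psrc1, a spindle protein, 6.23, 5.41 and 5.70 in 24 h livers, against 2.28, 2.28 and 2.28 in sham livers. Psrc1, 1 of the 23, passed the filter only through the 24 h livers and had to differ to be tested. Sesn2 rose by 1.61 ± 0.23 and Ckap2 by 1.62 ± 0.07. Bbc3, or PUMA (-0.68 ± 0.46), Pmaip1, or NOXA (0.88 ± 0.62), Fas (0.79 ± 0.38) and Perp (0.13 ± 0.12), which act in cell death, were not called, while Aen, Apaf1 and Eda2r rose. Trp53 itself is not analysed here.

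Among 36 genes of the BCL2 family and the death receptors, 9 rose (25%, against 17.9% of all genes) and 4 fell (11.1%, against 15%). The count of lower members was 7 without 48 h C. Apaf1, the scaffold of the apoptosome, read 5.10, 5.88 and 5.89 in 24 h livers, against 2.97, 2.97 and 2.97 in sham livers. The survival proteins Bcl2l1 (1.74 ± 0.22) and Mcl1 (1.11 ± 0.17) rose, as did Mlkl, the effector of necroptosis (2.78 ± 0.58). Bmf, a BH3-only activator of death, read 5.95, 5.95 and 5.82 in 24 h livers, against 8.70, 8.84 and 8.77 in sham livers, and the caspase inhibitor Xiap fell by 1.21 ± 0.11. The fall of Xiap was not called with the set of highest variance. The receptors Tnfrsf1a (1.16 ± 0.39) and Tnfrsf1b (0.17 ± 0.44) were not called.

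Of 52 cell cycle and mitosis genes, 10 rose (19.2%, near the 17.9% of all genes) and 3 fell (6 without 48 h C), and the median was 0.00. The higher members include Mcm2, Mcm4, Mcm5 and Mcm7, subunits of the replicative helicase, Cdt1, which helps to load it, the phosphatase Cdc25a and the kinase Cdk4. Cdt1 read 8.96, 8.23 and 8.81 in 24 h livers, against 5.84, 5.11 and 5.72 in sham livers, and Mcm2 read 7.54, 7.59 and 8.27 in 24 h livers, against 5.61, 4.44 and 4.44 in sham livers. Cdk1, the mitotic kinase, read 3.76, 3.76 and 3.74 in 24 h livers, against 3.87, 3.91 and 3.82 in sham livers, low on the scale and not called. Tk1, a thymidine kinase of S phase, fell by 2.52 ± 0.40, and Mcm10 by 2.93 ± 0.32. Ccnd1, or cyclin D1, was not called (0.20 ± 0.67, adjusted p = 0.874).

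Immediate early and AP-1 genes had 11 of 29 higher and 1 lower (median 1.22); 1 of the 11, Dusp5, passed the filter only through the 24 h livers. Atf3 read 7.34, 5.73 and 7.41 in 24 h livers, against 3.09, 3.09 and 3.09 in sham livers, the sham value being 1 reading that recurs in all 3 arrays. Jun read 10.92, 10.76 and 10.49 in 24 h livers, against 7.48, 7.51 and 9.46 in sham livers, with sham C nearest to the 24 h livers. Ier5 (3.09 ± 0.26), Klf6 (3.05 ± 0.44) and Dusp6 (2.64 ± 0.34), the last a phosphatase that switches off ERK, rose. Fos (1.28 ± 0.94, adjusted p = 0.353) and Egr1 (2.57 ± 1.12, adjusted p = 0.126) were not called. The count of higher members was 5 without sham B and 6 without sham A or 24 h C.

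The NRF2 set holds genes of glutathione, thioredoxin and quinone handling that NRF2, encoded by Nfe2l2, is known to switch on. Of 40 tested, 16 rose and 3 fell (Blvra, Gstm4 and Mafg), with a median of 0.54. Hmox1, heme oxygenase, read 11.58, 11.06 and 11.42 in 24 h livers, against 7.17, 7.88 and 8.01 in sham livers (a 12.7-fold rise). Txnrd1, thioredoxin reductase, read 13.11, 13.08 and 13.11 in 24 h livers, against 10.89, 10.88 and 11.13 in sham livers, with the 24 h livers close together. Srxn1 read 12.99, 13.15 and 13.64 in 24 h livers, against 8.97, 8.52 and 7.72 in sham livers, and Gclc, the catalytic subunit of glutathione synthesis, 15.12, 15.02 and 15.22 in 24 h livers, against 11.71, 12.41 and 12.12 in sham livers. Nqo1 rose by 2.36 ± 0.33, Nfe2l2 by 1.80 ± 0.30 and its inhibitor Keap1 by 0.59 ± 0.18. Gclm, the partner of Gclc, was not called (0.20 ± 0.19), nor was Gstm1 (0.49 ± 0.30).

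The core of the antioxidant element, TGACNNNGC on either strand, was found in the promoter window of 13 of 35 measured members (37.1%) of 6 of the 12 higher members with a promoter (50%) and of 2 of the 3 lower ones (66.7%), Blvra (-1.93 ± 0.29) and Mafg (-0.92 ± 0.20). It was found for 16.9% of the tested genes and 14% of all genes of the table. Txnrd1 and Ugdh, which makes UDP-glucuronate (log2 difference 1.11 ± 0.29), are shown as members that hold 1 and 2 matches before their start. The sequences are RefSeq's for GRCm38.p6, Txnrd1 on the plus and Ugdh on the minus strand, with the matches in capitals.
Txnrd1, chr10:82858956-82859205: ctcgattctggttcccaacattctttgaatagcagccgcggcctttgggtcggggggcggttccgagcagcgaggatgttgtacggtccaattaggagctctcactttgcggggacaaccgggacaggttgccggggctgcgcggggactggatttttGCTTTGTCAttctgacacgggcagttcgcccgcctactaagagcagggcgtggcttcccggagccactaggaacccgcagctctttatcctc
Ugdh, chr5:65435843-65436092: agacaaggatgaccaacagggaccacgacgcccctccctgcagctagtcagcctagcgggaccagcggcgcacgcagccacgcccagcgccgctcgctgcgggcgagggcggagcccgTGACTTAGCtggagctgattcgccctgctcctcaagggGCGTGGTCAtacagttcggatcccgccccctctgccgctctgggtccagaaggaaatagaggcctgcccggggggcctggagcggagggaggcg

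Sterol synthesis turns acetyl-CoA into cholesterol under the control of SREBP-2. Of 22 genes tested, 17 fell, 0 rose and 5 were not called, with a median of -2.62. The count of lower members was 16 to 18 when any 1 array was left out. Along the pathway, Hmgcs1, the synthase that makes HMG-CoA, read 11.18, 11.29 and 11.23 in 24 h livers, against 14.87, 14.46 and 13.73 in sham livers. Idi1, the isomerase of isopentenyl diphosphate, read 9.80, 8.84 and 9.39 in 24 h livers, against 14.42, 14.12 and 13.23 in sham livers. Fdps, which makes farnesyl diphosphate, read 9.99, 7.82 and 8.24 in 24 h livers, against 13.53, 13.04 and 12.56 in sham livers. Dhcr7, the reductase of the last step, read 7.71, 7.85 and 8.16 in 24 h livers, against 12.63, 12.38 and 11.99 in sham livers, a 21.5-fold fall (adjusted p = 0.000109). Insig1, which retains SREBPs in the endoplasmic reticulum, fell by 3.17 ± 0.25, and Stard4, a cholesterol carrier, by 3.19 ± 0.31. Srebf2 itself was not called (4.87, 4.88 and 5.09 in 24 h livers, against 5.03, 5.52 and 5.36 in sham livers). Sqle (-0.92 ± 0.48), Mvd (-2.28 ± 0.83), Tm7sf2 (-0.02 ± 0.08) and Insig2 (-0.15 ± 0.34) were not called either.

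The CCAAT box, bound by NF-Y next to sterol elements, was searched as CCAAT on both strands in the same window. It was found for 18 of the 19 sterol genes with a promoter (94.7%), against 42.7% of the tested genes and 41.1% of all genes of the table. Among the lower sterol genes it was found for 13 of 14 (92.9%), so it did not set them apart from the other members. The sterol element core CACCCCAC was found for 1 of the 19 (5.26%) and for 3.86% of tested genes. Endoplasmic reticulum chaperone genes held a CCAAT box in 20 of 26 cases (76.9%). Hmgcs1, Dhcr7 and Idi1 are shown as members from the start, the end and the middle of the pathway in that order with several boxes, in capitals, and all 3 are RefSeq sequences of GRCm38.p6 on the plus strand.
Hmgcs1, chr13:119690101-119690350: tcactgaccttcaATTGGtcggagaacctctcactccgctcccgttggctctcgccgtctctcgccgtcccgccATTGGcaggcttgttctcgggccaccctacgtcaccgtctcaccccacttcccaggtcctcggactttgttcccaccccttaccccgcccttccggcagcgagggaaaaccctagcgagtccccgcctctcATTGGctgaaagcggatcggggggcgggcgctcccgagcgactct
Dhcr7, chr7:143829964-143830213: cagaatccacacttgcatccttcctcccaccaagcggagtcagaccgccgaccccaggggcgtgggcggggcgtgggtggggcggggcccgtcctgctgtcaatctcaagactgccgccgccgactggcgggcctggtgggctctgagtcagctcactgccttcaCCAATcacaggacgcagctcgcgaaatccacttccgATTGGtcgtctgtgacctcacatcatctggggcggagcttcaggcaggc
Idi1, chr13:8885356-8885605: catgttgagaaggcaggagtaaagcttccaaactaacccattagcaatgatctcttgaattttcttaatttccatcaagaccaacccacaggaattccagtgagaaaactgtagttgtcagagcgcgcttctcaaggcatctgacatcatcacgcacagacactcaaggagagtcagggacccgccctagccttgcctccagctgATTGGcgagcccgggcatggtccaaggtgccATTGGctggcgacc

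Fatty acid and triglyceride synthesis had 19 of 29 members lower and 1 higher (Fads3), with a median of -1.43. Srebf1, the SREBP that drives lipogenesis, read 7.64, 9.15 and 8.80 in 24 h livers, against 12.45, 12.11 and 11.43 in sham livers, with liver A the lowest. Elovl5, an elongase of polyunsaturated fatty acids, read 11.07, 11.11 and 11.33 in 24 h livers, against 13.70, 13.63 and 13.57 in sham livers, and Fads2, the delta-6 desaturase, read 9.90, 10.74 and 11.08 in 24 h livers, against 13.16, 13.18 and 13.29 in sham livers. Acacb, an acetyl-CoA carboxylase, fell by 2.19 ± 0.24 and Acsl5, which activates fatty acids, by 1.32 ± 0.13. The fatty acid synthase Fasn (-1.75 ± 0.60, adjusted p = 0.0604) and Scd1, a desaturase (-0.09 ± 0.48), were not called. Lipid droplet genes were split, with 4 of 16 higher and 4 lower (25% each, against 17.9% and 15% of all genes). Cidec and Plin2 (1.19 ± 0.36), which coat droplets, and Abhd5 (1.16 ± 0.16), a co-activator of lipolysis, rose. Cideb, which acts on lipoprotein lipidation, read 11.04, 11.12 and 11.09 in 24 h livers, against 12.997, 13.06 and 12.99 in sham livers and fell 3.83-fold (adjusted p = 4.65e-05), and the lipase Mgll fell by 1.11 ± 0.10.

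Fatty acid oxidation and PPAR alpha targets had 13 of 42 lower and 3 higher (median -0.40). Cpt1a, which lets fatty acids into mitochondria, read 10.13, 10.59 and 9.78 in 24 h livers, against 11.98, 12.14 and 12.33 in sham livers, and Bdh1, which makes the ketone body beta-hydroxybutyrate, 9.88, 10.52 and 9.99 in 24 h livers, against 12.98, 13.29 and 12.91 in sham livers. The acyl-CoA thioesterase Acot1 went the other way, with 11.19, 10.97 and 10.18 in 24 h livers, against 7.16, 7.31 and 7.61 in sham livers (a 10.7-fold rise). Ppara was called by a small margin (-1.38 ± 0.44, adjusted p = 0.0485) and lost the call in 8 of 9 fits that left out 1 array. The count of lower members was 7 without sham B, 8 without sham C and 20 without 24 h A.

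Of 61 enzymes of amino acid breakdown tested, 39 fell and 0 rose (median -0.97). Kynu, of the tryptophan to NAD path, read 8.13, 7.85 and 6.87 in 24 h livers, against 12.57, 12.31 and 11.82 in sham livers (a 24.6-fold fall). Hal, which starts histidine breakdown, read 8.93, 9.88 and 9.03 in 24 h livers, against 12.77, 12.85 and 12.13 in sham livers. Cth and Cbs, the enzymes that turn homocysteine into cysteine, read 12.92, 11.64 and 11.47 in 24 h livers, against 15.28, 15.09 and 14.58 in sham livers for Cth and 10.33, 8.83 and 8.52 in 24 h livers, against 11.85, 12.12 and 11.91 in sham livers for Cbs; liver A kept the highest value of both at 24 h. Cdo1, cysteine dioxygenase, fell by 1.94 ± 0.14 and Kmo, kynurenine monooxygenase, by 1.51 ± 0.11. Tat, the tyrosine aminotransferase, was not called (-1.12 ± 0.36).

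The urea cycle and the transporters that feed it had 13 of 21 genes lower and 0 higher (median -0.85). Cps1, the entry enzyme, read 14.41, 14.32 and 14.29 in 24 h livers, against 14.90, 14.86 and 14.82 in sham livers, a 1.43-fold fall. Asl (-1.40 ± 0.44) and Arg1 (-0.69 ± 0.12) fell as well, while Otc (-0.16 ± 0.16), Ass1 (-0.72 ± 0.45) and Nags (-0.56 ± 0.20) were not called. Larger falls were those of the supply: Car5a, the mitochondrial carbonic anhydrase, read 9.24, 7.51 and 7.12 in 24 h livers, against 11.80, 11.85 and 11.65 in sham livers, and the transporters Slc38a3 and Slc38a4 fell by 2.53 ± 0.18 and 2.48 ± 0.30. Got1, an aspartate aminotransferase, read 11.64, 11.21 and 11.42 in 24 h livers, against 13.90, 14.14 and 13.79 in sham livers. Glul, glutamine synthetase of the pericentral hepatocyte, read 11.85, 12.61 and 12.43 in 24 h livers, against 13.78, 13.91 and 13.83 in sham livers.

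Gluconeogenesis and glycogen genes had 11 of 23 lower and 1 higher (Ppp1r3c, 1.71 ± 0.37), with a median of -1.02. Beside G6pc, Gys2, the liver glycogen synthase, read 10.69, 8.99 and 8.84 in 24 h livers, against 11.90, 12.39 and 12.56 in sham livers. Slc2a2, the glucose transporter GLUT2, read 11.79, 11.34 and 11.61 in 24 h livers, against 13.40, 13.55 and 13.41 in sham livers and fell 3.65-fold. Pck1, the entry enzyme of gluconeogenesis, fell by 1.77 ± 0.51, and Fbp1 was not called (-0.36 ± 0.14).

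Enzymes that handle galactosamine and UDP-sugars were mixed. Of 23 tested, 9 fell (39.1%, against 15% of all genes) and 4 rose (17.4%, near the 17.9% of all genes). The count of higher members was 2 without sham A or sham B, and the list's median was -0.36. Galt, which exchanges galactose 1-phosphate for UDP-galactose, read 9.20, 8.86 and 8.72 in 24 h livers, against 10.82, 10.78 and 10.21 in sham livers and fell 3.20-fold (adjusted p = 0.000964). Ugp2, which makes UDP-glucose, read 14.31, 14.17 and 14.22 in 24 h livers, against 14.80, 14.92 and 14.59 in sham livers and fell 1.45-fold. Gne, the first enzyme of sialic acid synthesis from UDP-N-acetylglucosamine, read 8.40, 8.31 and 7.85 in 24 h livers, against 10.67, 11.26 and 12.19 in sham livers, a 9.13-fold fall. Hk2, a hexokinase that healthy hepatocytes hardly express, read 4.30, 4.20 and 4.30 in 24 h livers, against 2.74, 2.78 and 2.72 in sham livers, and Ugdh read 13.31, 13.73 and 13.37 in 24 h livers, against 12.26, 12.51 and 12.31 in sham livers. Galk2 and Nans fell by 0.99 ± 0.28 and 1.24 ± 0.23. Pgm1 (-0.99 ± 0.34), Galm (-0.55 ± 0.24) and Uap1 (0.19 ± 0.22) were not called.

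Uridine and pyrimidine enzymes had 7 of 33 higher (21.2%, against 17.9% of all genes) and 6 lower (18.2%, against 15%), shares near the background, and are given for their place in the handling of GalN. In new synthesis, Cad, the enzyme of the first 3 steps, read 6.40, 6.76 and 6.45 in 24 h livers, against 3.85, 3.86 and 3.95 in sham livers, at least 6.27 times the sham level. Dhodh, of the step that follows, read 6.15, 3.69 and 3.90 in 24 h livers, against 6.64, 6.65 and 6.45 in sham livers, with liver A close to sham. Umps, which completes UMP, was not called (0.38 ± 0.16, adjusted p = 0.125). Ctps, which makes CTP from UTP, read 8.79, 8.81 and 9.05 in 24 h livers, against 5.93, 5.97 and 6.05 in sham livers, while its relative Ctps2 fell by 1.23 ± 0.21. In salvage, Uck2, a uridine-cytidine kinase, read 8.98, 8.69 and 7.499 in 24 h livers, against 6.49, 6.48 and 6.39 in sham livers, and Uck1 was not called (0.87 ± 0.28). In breakdown, Upp2 was among the 12 largest falls, and Upp1 rose by 0.78 ± 0.23, with sham readings near the lowest value of the table.

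**Figure D4:**
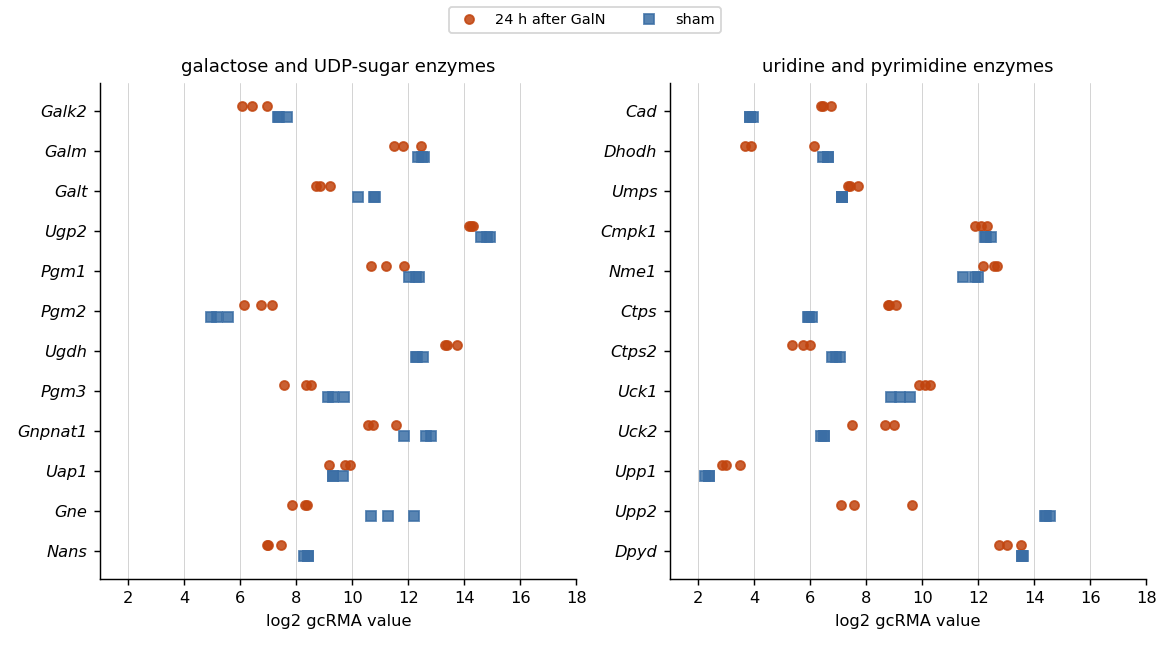
Log2 gcRMA value of each array for 12 enzymes of galactose and UDP-sugar metabolism (left) and 12 of uridine and pyrimidine metabolism (right), 24 h livers as circles and sham livers as squares. Galt, Gne, Ctps2 and Upp2 are lower at 24 h, Ctps, Cad and Uck2 are higher, and the groups of Galm, Cmpk1 and Uap1 overlap or meet.

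Bile acid synthesis had 8 of 21 members lower and 1 higher (median -0.94). Cyp7a1, the rate-limiting enzyme, was not called (9.03, 10.02 and 8.67 in 24 h livers, against 10.77, 10.07 and 9.497 in sham livers, adjusted p = 0.224), nor was the bile acid receptor Nr1h4 (-0.40 ± 0.19). Beside Cyp8b1, Hsd3b7 read 11.58, 11.39 and 10.86 in 24 h livers, against 14.04, 13.95 and 13.82 in sham livers and Amacr, a racemase of side chain shortening, 11.20, 11.33 and 11.18 in 24 h livers, against 13.22, 13.15 and 12.95 in sham livers. Acnat2, a conjugating enzyme of the peroxisome, rose by 2.04 ± 0.39. The count of lower members was 4 without sham B or sham C. Of 27 transporters of bile acids and organic ions, 11 fell and 3 rose (median -0.60). Slc10a1, the uptake carrier NTCP, read 12.93, 13.12 and 12.92 in 24 h livers, against 14.08, 14.24 and 14.01 in sham livers, and Slco1b2, another uptake carrier, 12.71, 12.94 and 12.20 in 24 h livers, against 14.84, 14.89 and 14.95 in sham livers. The canalicular export pump Abcb11 fell by 2.51 ± 0.38. The 3 that rose are Abcc4 (2.69 ± 0.49), which exports bile acids back to blood, Abcb1b (1.98 ± 0.19) and Slc16a1 (0.99 ± 0.30).

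Acute phase proteins had 11 of 30 lower and 1 higher (Mbl2), with a median of -0.56. Crp, C-reactive protein, read 10.34, 11.60 and 11.22 in 24 h livers, against 13.61, 13.67 and 13.74 in sham livers, and Apcs, serum amyloid P, 10.42, 11.19 and 10.94 in 24 h livers, against 13.13, 13.43 and 13.23 in sham livers. Saa2, a serum amyloid A, read 7.89, 10.498 and 10.61 in 24 h livers, against 11.05, 15.82 and 15.94 in sham livers; sham A lay far below sham B and C, and the call was lost in 8 of 9 fits without 1 array. The count of lower acute phase genes was 4 without sham B or sham C, and 6 without 24 h A or 24 h C. Coagulation had 14 of 34 lower and 3 higher (0 higher without 24 h C or sham C and 1 without 24 h B, 48 h A or sham B). Klkb1, plasma kallikrein, read 9.68, 10.66 and 10.66 in 24 h livers, against 12.71, 12.91 and 13.18 in sham livers, and Serpinf2, the plasmin inhibitor, 12.03, 12.39 and 12.39 in 24 h livers, against 13.80, 13.96 and 13.93 in sham livers, while prothrombin (F2, -0.03 ± 0.08) and antithrombin (Serpinc1, -0.06 ± 0.06) were not called. Thbd, or thrombomodulin, rose by 2.13 ± 0.62. Clade A serpins had 5 of 13 lower and 1 higher: Serpina7, the thyroxine-binding globulin, read 6.37, 8.03 and 9.19 in 24 h livers, against 13.11, 13.51 and 10.96 in sham livers, Serpina6, the cortisol carrier, fell by 1.78 ± 0.22, and Serpina1b (0.02 ± 0.07) was not called. Plasma carriers had 5 of 19 lower (3 without 24 h B, 24 h C, sham B or sham C and 8 without 48 h C) and 0 higher, with Ttr (0.06 ± 0.06) and Rbp4 (-0.09 ± 0.05) not called. Apolipoproteins and lipoprotein assembly had 6 of 25 lower and 1 higher; Apon read 10.74, 11.80 and 11.68 in 24 h livers, against 13.55, 13.52 and 13.70 in sham livers, Mttp, which loads lipid onto nascent particles, fell by 1.16 ± 0.17, and Apoa1 (-0.23 ± 0.13) and Apob (-1.13 ± 0.41) were not called. Complement had 5 of 28 in each direction, 17.9% each, near the 17.9% higher and 15% lower of all genes. The count of higher complement genes was 3 without 24 h A, 24 h C, sham A or sham C. Masp1, a protease of the lectin path, read 9.56, 10.64 and 10.38 in 24 h livers, against 12.06, 12.26 and 12.52 in sham livers on its chosen set, but the mean of its sets gave 0.07, not called.

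Of 36 cytochromes P450 of families 1 to 3, most of which clear drugs and steroids, 8 fell (22.2%, against 15% of all genes) and 0 rose. Cyp2e1, which oxidises ethanol and many drugs, read 15.55, 15.65 and 15.72 in 24 h livers, against 15.64, 15.74 and 15.70 in sham livers and was not called. Cyp2r1, a vitamin D 25-hydroxylase, read 5.38, 5.93 and 5.36 in 24 h livers, against 9.09, 9.27 and 8.82 in sham livers. The count of lower members was 2 without sham B and 3 or 4 without any of 24 h B, 24 h C, 48 h A, sham A and sham C. Of 10 UDP-glucuronosyltransferases, 4 fell and 1 rose; Ugt2b35 read 14.26, 14.66 and 14.23 in 24 h livers, against 13.34, 13.25 and 13.32 in sham livers and Ugt2b36 13.90, 14.15 and 13.98 in 24 h livers, against 15.08, 15.07 and 14.98 in sham livers; the Ugt2b genes are close copies, so how far their sets measure one another is uncertain. Of 9 sulfotransferases, 4 fell (2 without 24 h A, 24 h C, sham A or sham B), among them Sult1b1 (-2.98 ± 0.39). Glutathione S-transferases had 6 of 20 lower (3 without 24 h C, sham A or sham B) and 1 higher (Gsta4, 1.06 ± 0.24).

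Hepatocyte transcription factors had 10 of 35 lower and 1 higher. Hnf4a, the master regulator of hepatocyte genes, read 13.54, 13.62 and 13.35 in 24 h livers, against 12.97, 13.38 and 14.002 in sham livers and was not called. Cebpa fell by 1.27 ± 0.34 (adjusted p = 0.0275), with the call lost when any 1 sham array was left out. Esr1, the oestrogen receptor alpha, read 5.93, 5.38 and 6.34 in 24 h livers, against 8.53, 8.92 and 9.14 in sham livers, and Nr1i3, the receptor CAR, 7.13, 7.32 and 6.32 in 24 h livers, against 8.67, 9.25 and 8.78 in sham livers. Genes of both zones of the lobule were among the lower ones: 9 of 30 pericentral and 12 of 28 periportal genes fell and 0 of either list rose. Axin2, a Wnt target of the pericentral zone, read 2.22, 2.49 and 3.33 in 24 h livers, against 2.23, 2.85 and 2.26 in sham livers, at the low end of the scale. Of 31 sex-biased and growth hormone dependent genes, 7 fell (22.6%, against 15% of all genes) and 0 rose. Circadian genes had 6 of 22 lower (3 without 24 h C, sham B or sham C) and 2 higher; Dbp, an output factor of the clock, read 9.51, 10.17 and 10.01 in 24 h livers, against 12.81, 13.32 and 13.27 in sham livers, Bhlhe40 fell by 1.45 ± 0.16, and the cold-inducible Cirbp rose by 2.08 ± 0.16. Per1 (0.14 ± 0.28), Per2 (0.21 ± 0.30) and Cry1 (-0.14 ± 0.19) were not called. The necropsy hour of the animals is not given in the sources used here. Glucocorticoid and fasting genes had 5 of 28 lower (17.9%, against 15% of all genes) and 3 higher (10.7%, against 17.9%). The count of lower members was 3 without 24 h C, sham B or sham C, and that of higher members 7 without sham C.

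Markers of the other cells of the liver rose in part, in small sets read against 17.9% higher and 15% lower among all genes tested. Of 12 endothelial markers 7 were higher, 0 lower and 0 at the lowest value of the table, with a summed log2 level of 11.64 to 12.55 at 24 h and 10.96 to 11.30 in sham. Macrophage and Kupffer cell markers were higher for 8 of 13, with a summed level of 14.58 to 14.78 at 24 h and 13.13 to 13.75 in sham. C1qb read 13.496, 13.47 and 13.43 in 24 h livers, against 11.75, 12.20 and 11.94 in sham livers. Of 12 stellate cell and fibroblast markers, 3 were higher (Dcn, Lrat and Pdgfrb) and the others not called, a share not far above that of all genes. Their summed level was 13.24 to 13.26 at 24 h against 12.32 to 12.88 in sham, with Des near the lowest value. None of 4 tested neutrophil markers was called, and Cxcr2, Mpo and Ngp lay near the lowest value in both groups, as did 7 of the 8 markers of T, B and NK cells on the array. None of 6 cholangiocyte markers was called. Cela1, the 1 pancreatic acinar marker tested, was lower at 24 h, with Cpa1 and Ctrb1 near the lowest value. Of 2 erythroid markers tested, Alas2 was lower. None of 7 kidney tubule markers was called, with a summed level of 5.70 to 7.72 at 24 h and 5.66 to 5.85 in sham. Among them Kap read 7.34, 2.24 and 2.36 in 24 h livers, against 2.24, 3.09 and 2.39 in sham livers, high in liver A alone. The source of that reading was not tested.

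Chemokines and NF-kB response genes had 6 of 39 higher (15.4%, against 17.9% of all genes) and 2 lower (5.13%, against 15%). Icam1, an adhesion molecule, read 9.04, 8.73 and 8.45 in 24 h livers, against 5.02, 5.15 and 4.82 in sham livers, and Ccl6, a chemokine of macrophages, 10.21, 9.76 and 10.15 in 24 h livers, against 7.05, 7.59 and 6.99 in sham livers. Il18 read 7.39, 6.39 and 6.87 in 24 h livers, against 10.14, 10.08 and 9.77 in sham livers. Tnf and Il6 lay too low on the array to be tested. Interferon-stimulated genes had 6 of 27 higher (22.2%, against 17.9% of all genes) and 1 lower (3.7%, against 15%). The count of higher members was 3 without 24 h B, 48 h A or any 1 sham array. Oas1a read 5.498, 5.80 and 6.07 in 24 h livers, against 4.17, 4.20 and 4.15 in sham livers. The RNA sensor Ifih1 read 8.71, 8.75 and 8.44 in 24 h livers, against 10.47, 10.44 and 10.07 in sham livers. The part of the macrophage and endothelial markers in the rise of Icam1, Ccl6 and C1qb was not tested.

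Growth factors and receptors known from liver regeneration had 10 of 35 higher (28.6%, against 17.9% of all genes) and 7 lower (20%, against 15%). Among ligands, Inhbb, an activin subunit, rose by 3.38 ± 0.87, and the hepatocyte activin subunit Inhbc read 6.18, 7.35 and 7.26 in 24 h livers, against 9.69, 10.02 and 10.67 in sham livers. Tgfa rose by 1.13 ± 0.32, and Hgf was not called (3.93, 2.43 and 4.31 in 24 h livers, against 2.94, 2.21 and 2.21 in sham livers). Among receptors, Egfr read 10.17, 10.12 and 10.10 in 24 h livers, against 12.05, 11.85 and 12.80 in sham livers, and Met, the receptor of HGF, fell by 1.07 ± 0.23, a call lost with the mean of its sets or the set of highest variance. Among BMP and TGF-beta targets, Id1 read 9.63, 8.55 and 9.95 in 24 h livers, against 5.85, 6.16 and 6.98 in sham livers. The count of higher members was 4 without sham B, 5 without 24 h C and 6 without sham A. Insulin-like growth factor genes had 4 of 17 lower (2 without 24 h A, sham B or sham C) and 1 higher: Igfals, which keeps IGF-1 in the circulation, read 7.15, 7.24 and 7.19 in 24 h livers, against 9.55, 9.85 and 10.32 in sham livers, the insulin receptor Insr read 9.12, 9.06 and 8.61 in 24 h livers, against 10.32, 11.29 and 11.66 in sham livers, and Igf1 was not called (-0.81 ± 0.30). Fetal and progenitor markers had 5 of 19 higher (3 without 24 h A, 24 h B, sham A or sham B) and 0 lower, with Pkm at 7.24, 7.59 and 7.88 in 24 h livers, against 5.27, 5.69 and 5.25 in sham livers and Afp not called (6.96, 7.69 and 7.997 in 24 h livers, against 7.95, 7.39 and 5.60 in sham livers).

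Mitochondrial and other organelle genes differed by process. Of 76 subunits of oxidative phosphorylation, 3 fell and 0 rose (median -0.05), with Ndufs7 at -1.01 ± 0.16; the count of lower members was 8 without 48 h C. Mitochondrial carriers of the Slc25 family had 13 of 39 lower and 3 higher (1 higher without 48 h A or 48 h B). The count of higher carriers was also 1 with no filter, after quantile normalisation or with only the 6 arrays compared. The citrate carrier Slc25a1 fell by 1.72 ± 0.19 and the dicarboxylate carrier Slc25a10 by 1.56 ± 0.13. Peroxisome biogenesis had 7 of 14 lower and 1 higher (median -0.99). Pex11g, of peroxisome division, read 6.28, 7.06 and 6.75 in 24 h livers, against 10.21, 10.14 and 9.73 in sham livers, and Pex19 fell by 1.24 ± 0.16. Outside this list, Nudt7, a peroxisomal CoA hydrolase, read 11.63, 11.03 and 10.53 in 24 h livers, against 15.35, 15.28 and 15.23 in sham livers. Heme and iron genes had 10 of 34 lower and 3 higher, and Alad, of heme synthesis, read 11.05, 10.05 and 10.34 in 24 h livers, against 12.70, 12.74 and 12.31 in sham livers; the count of lower members was 5 without sham B and 6 without 24 h C, and that of higher members 1 without any of the 24 h livers, sham A or sham B and 5 without sham C. Autophagy and lysosome genes had 9 of 42 higher (21.4%, against 17.9% of all genes) and 10 lower (23.8%, against 15%). Atg7, needed for autophagosome growth, fell by 1.74 ± 0.27, and the count of lower members was 4 without sham B. The proteasome had 5 of 46 in each direction, 10.9% each, under the shares of all genes. Its counts were 12 higher without 48 h C and 2 lower without 24 h B, 24 h C, sham A or sham B. Tubulin, actin and filament genes had 10 of 49 higher (20.4%, near the 17.9% of all genes; 6 without 24 h C or sham B) and 3 lower, with Actg1 at 2.13 ± 0.38 and Tmsb4x at 0.90 ± 0.11. In the ATF4 and serine synthesis list 5 of 30 rose and 5 fell, 16.7% each, near the shares of all genes, and each count was 3 without sham A or sham B. Atf4 (-0.61 ± 0.26) and Asns (-0.82 ± 0.45) were not called, and Fgf21 gave 1 recurring low reading in all 6 arrays.

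The livers of a group were not alike for every gene. The median standard deviation over the 12071 genes was 0.221 at 24 h and 0.193 in sham, and it exceeded 1 for 229 genes at 24 h and 237 in sham. Hspa1a, the inducible HSP70, had the largest at 24 h: it read 3.51, 7.52 and 10.29 in 24 h livers, against 3.22, 2.93 and 3.27 in sham livers, so liver A sat with the sham livers and liver C far above it (adjusted p = 0.0797). Psat1, of serine synthesis, read 4.75, 3.67 and 9.13 in 24 h livers, against 2.50, 2.50 and 2.27 in sham livers, high in liver C alone. Elovl3 and G6pc, above, fell in all 3 livers by different amounts. Coq8a, of coenzyme Q synthesis, read 8.74, 7.75 and 5.15 in 24 h livers, against 11.10, 11.29 and 10.89 in sham livers, with liver C the lowest.

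Sham livers also differed among themselves, and the genes given here were picked for their spread. Moxd1 had the largest, with 4.09, 4.51 and 5.83 in 24 h livers, against 2.42, 2.21 and 8.31 in sham livers, followed by the mitochondrial carrier Slc25a30 with 8.85, 9.10 and 10.08 in 24 h livers, against 3.10, 5.11 and 9.66 in sham livers, both high in sham C among the sham livers. The metallothionein Mt1 read 12.74, 12.90 and 13.55 in 24 h livers, against 8.14, 9.58 and 13.26 in sham livers, so that sham C lay among the 24 h livers and sham A far below them, and Mt2 read 10.65, 10.79 and 11.02 in 24 h livers, against 6.33, 6.77 and 11.496 in sham livers. Socs3, an inhibitor of cytokine signalling, read 9.44, 9.72 and 10.42 in 24 h livers, against 6.60, 7.85 and 10.47 in sham livers, and Zbtb16, a glucocorticoid target, 6.71, 8.48 and 8.76 in 24 h livers, against 3.55, 4.53 and 8.40 in sham livers. None of these 6 genes was called. Saa1 read 8.55, 11.93 and 12.998 in 24 h livers, against 12.54, 15.29 and 15.47 in sham livers, low in sham A. Myl9, a myosin light chain, read 3.01, 2.84 and 3.04 in 24 h livers, against 7.77, 2.23 and 2.23 in sham livers and Myh11, a myosin heavy chain, 2.23, 2.24 and 2.23 in 24 h livers, against 6.93, 3.70 and 3.37 in sham livers, both high in sham A. Sham A lay over 1 log2 unit above the mean of the other two sham livers, these within 0.5 of each other, for 161 genes and below it for 151; the counts were 135 and 148 for sham C but 59 and 38 for sham B. At 24 h the counts were 157 and 156 for liver A, 81 and 94 for B, and 153 and 117 for C. Without sham A 3172 genes were called, without sham B 2834 and without sham C 3251, against 3966 with all arrays.

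A gene with several probe sets can be read more than once. The 1952 called genes with another set had 3255 such sets, of which 1448 (44.5%) were called in the same direction, 1327 (40.8%) had the same sign without a call, 418 (12.8%) had the opposite sign without a call and 62 (1.9%) were called in the opposite direction. Each gene's value above is that of its brightest set.

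The structure of the called genes is given by direction, as a description. Their genomic span, the distance between the first and last base of the gene in RefSeq (GRCm38.p6), had a median of 18.2 kb for higher genes, 27.8 kb for lower genes and 23.2 kb for all genes tested. Of the 1456 genes under 5 kb, 20.2% were higher and 9.96% lower, while of the 1540 genes of 100 kb or more 7.66% were higher and 20.6% lower. The promoter window also differed: the ratio of observed to expected CpG had a median of 0.815 for higher genes, 0.693 for lower genes and 0.737 for all tested genes with a promoter. The 112 genes that fell at least 8-fold had a median of 0.445, and the 112 that rose at least 8-fold one of 0.791. With a ratio of 1.0 or more, 27.3% of genes were higher and 10.9% lower; under 0.2 these were 7.61% and 17%. Level moved with these shares as well, since genes with a mean log2 value of 12 to 14 were higher in 12.2% and lower in 27.0% of cases and those of 6 to 8 in 23.7% and 15.8%. The part of expression level in the other two was not tested.

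**Figure D5:**
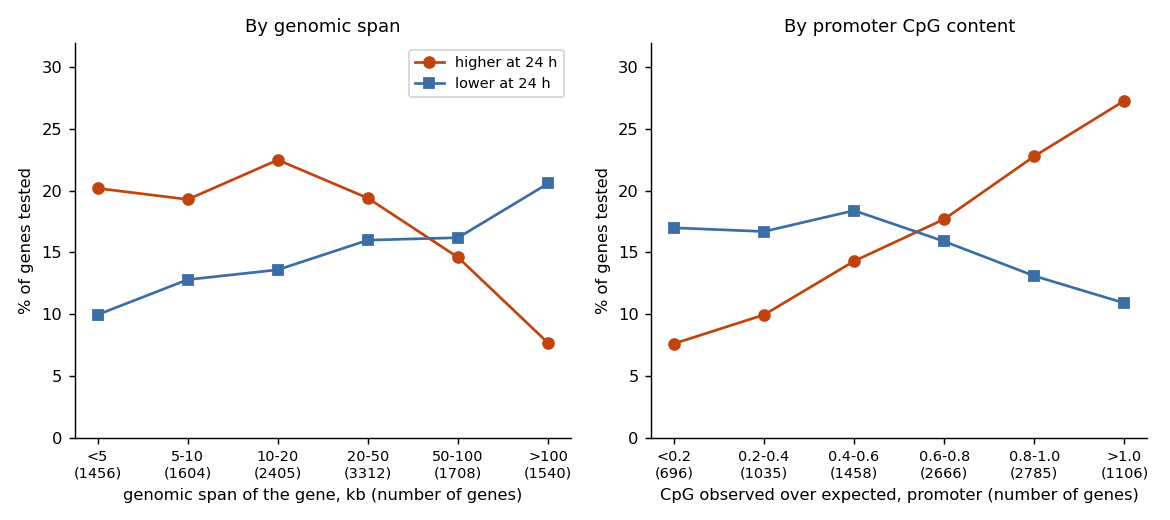
Share of tested genes called higher (circles) or lower (squares) at 24 h, in percent, by the genomic span of the gene (left) and by the ratio of observed to expected CpG in its promoter (right), with the number of genes under each bin. The share of higher genes goes down to 7.66% in the longest genes and up to 27.3% in the promoters richest in CpG, and the share of lower genes is 20.6% and 10.9% in these bins.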

How the data were processed

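The authors deposited 1 value per probe set and array, a log2 gcRMA value, per the submitters' processing notes, which name GCRMA without a version. The design text also names the affy package. The table was used as deposited: 64 control sets were left out, 932 sets named for several genes and 9160 named for none were not used for genes, and 34741 of the 34945 single-gene sets matched a gene of the mouse reference. The intensity depth of an array cannot be expressed in counts, and the number of arrays (3 per group) limits the precision. Between 58.46% and 59.24% of the values of each of the 6 arrays lie within 1 of the lowest value.

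A gene was tested if its value exceeded the array median (percentile 50, control sets left out) in at least 3 of the 9 liver arrays. The test was limma 3.58.1 (R 4.3.3), fitted with a trend on intensity and with group means of the sham, 24 h and 48 h livers, two-sided, with Benjamini-Hochberg adjustment over all 12071 genes and a threshold of 0.05; every adjusted p given is from it. The fit was also run on simulated data with known changes put on 200 genes. The simulated noise was normal and did not copy floor or recurring readings, so this run cannot vouch for calls that rest on them. The median standard error was 0.234. No batch is named in the labels.

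The members, lists and rules were chosen with earlier results of these data known. Genes named are the 12 largest called rises and falls without overlap, in each list up to 4 called members, by smallest p, with members at the top of their pathway, a panel of liver genes and up to 6 genes of the largest spread; other members were chosen after their values were seen. Promoters are those of RefSeq (GRCm38.p6). Alternatives were the filter, the choice of probe set, the scaling, the floor, the variance model, the arrays fitted, a block for the array letter, the rank product and leaving out each array.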

Additional observations from a re-analysis of the deposited data

Results flagged for a closer look

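Probe sets outside the gene comparison also carried signal. Of the sets named for no gene, 1910 passed the same filter and 353 (18.5%) were called at a limma adjusted p under 0.05, 214 higher and 139 lower at 24 h. Of the sets named for several genes, 601 passed and 170 (28.3%) were called, 130 higher and 40 lower. Among the genes, 32.9% were called.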

How the results depend on the processing

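The 3966 calls became between 3253 (no filter) and 5915 (array quality weights) under the limma alternatives that kept all liver arrays or changed the arrays fitted, and 2834 (without sham B) to 4652 (without 48 h C) when 1 array was left out. The 48 h C array adds to the spread that all groups share. Its Actb gap was 2.556, and the part of RNA quality in that spread was not tested. Array quality weights also gave 2823 lower genes against 1805. The rank product, the authors' stated test, called 596 genes (290 higher and 306 lower), all 596 at least 2-fold different, and 569 were among the limma calls. With the array letter as a replicate block, 3363 genes were called (1820 higher and 1543 lower). The same-letter correlations of deviations between the 24 h and sham livers were 0.016, 0.0188 and 0.0483 for A, B and C. Correlations between unlike letters were -0.0365 to 0.0222, and not every array correlated best with its own letter. With 3 arrays per group, these values cannot tell whether the letters mark something shared. The median over all tested genes was -0.07 after median centring and -0.03 after quantile normalisation. After quantile normalisation 4068 genes were called (2129 higher and 1939 lower), and 220 of the 222 named calls were kept. Masp1 turned to 0.0711 with the mean of its sets (adjusted p = 0.853), and Igfbp7, a growth factor binding protein (0.63 ± 0.14), turned to -0.21 with the set of highest variance (adjusted p = 0.787). The cause was not tested. Of 222 named calls, 208 kept their call in every fit without 1 array that tested them, 197 under every other limma alternative, 195 under both, and 94 under the rank product. Readings near the lowest value, or recurring in another array, bound 768 of the called folds.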

Other observations

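Genes were also grouped by the letters that open their symbol, for the 107 groups with at least 12 tested members, and the groups named here were picked after their values were seen. Several groups had a larger share of higher members than the 17.9% of all genes tested, without a test of the difference. Of 25 Polr genes, subunits of the RNA polymerases, 16 were higher and 1 lower. Of 29 Med genes, subunits of the Mediator that links factors to RNA polymerase II, 16 were higher and 2 lower (median log2 difference 0.80). Of 12 Prpf genes, pre-mRNA splicing factors, 8 were higher and 0 lower (median 1.65), and of 30 Rbm genes, which bind RNA, 16 were higher and 0 lower. General transcription factors (Gtf) had 10 of 21 higher and 2 lower, TBP-associated factors (Taf) 8 of 20 and 0, and Integrator subunits (Ints) 6 of 15 and 0. Trmt genes, tRNA methyltransferases, had 8 of 15 higher and 1 lower, and Ddx RNA helicases 14 of 31 higher and 0 lower; the Ddx, Polr and Taf groups include genes of the ribosome biogenesis list. Lsm genes, another group of RNA-binding proteins, had 3 of 12 higher and 1 lower.

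Groups with a larger share of lower members than the 15% of all genes were Hsd, hydroxysteroid dehydrogenases, with 8 of 15 lower and 0 higher (median -1.29), Abhd hydrolases with 9 of 19 lower and 3 higher, Akr aldo-keto reductases with 6 of 15 and 1, and Sec genes of protein secretion with 9 of 25 and 2. Carbonic anhydrases and the other Car genes had 5 of 13 lower and 0 higher. Collagens (Col) had 2 of 27 higher and 1 lower.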
